A study of Mus musculus with 36 samples.

Results

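The Control cells at 24 h were compared with the Control cells at 0 h, 3 samples against 3, in the table of smoothed methylation levels. These 6 of the 36 RRBS samples were chosen by their condition in the sample labels and not by any measured value. The unit of description was the CpG cluster, a run of listed CpG positions at most 100 bp apart, whose level in a sample was the mean over the positions with a value in all 6 samples. Of 18009 clusters, 17053 had at least 1 such position. Where the level of a single cluster is given for other samples, it was the mean over those of these positions that had a value. The cells were B3, a mouse pre-B line, in which the study followed the action of Ikaros over 24 h in 36 RRBS libraries, 18 of an inducible Ikaros series and 18 of the Control series. The Control cells carried the same retroviral vector with ERt2, the tamoxifen-binding domain of the estrogen receptor, and GFP, but no Ikaros, and were sorted for GFP. The 24 h cells had been given 0.5 µM 4-hydroxytamoxifen (4-OHT) for 24 h. The 0 h cells had no 4-OHT according to the methods of the study, whereas the labels give 0.5 µM at 0 h as well. Replicate 1 belonged to batch 1 and replicate 3 to batch 4 at both time points, while the replicate numbered 2 came from batch 2 (0 h) or batch 3 (24 h). By the study's methods the 0 h cells were collected apart from the treated flasks, which were harvested together within a batch. The comparison, within a batch too, therefore holds 4-OHT, ERt2 bound by 4-OHT, the time in culture and the separate collection together, and these cannot be told apart. All of the cells came from 1 cell line.

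In mammals, DNA methylation is placed mainly on the cytosine of CG dinucleotides, where DNMT1 copies it to the new strand at replication, DNMT3A and DNMT3B add it anew and the TET enzymes oxidize it on the way to its removal. CpG-rich promoters of active genes are mostly free of methylation, whereas gene bodies, repeats and silenced promoters carry high levels. A change between these states needs enzymes to act or cells to divide, and pre-B cells of this kind divide in culture until they differentiate. RRBS reads bisulfite-converted fragments cut at CCGG, and so sees CpG-rich DNA, most of it at promoters.

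The stretches of reference sequence below lie in clusters whose differences are described further on. They belong to the cluster at Hs3st1, which had among the smallest p-values, to Tbx20 and Prmt2, which were among those with the largest higher level at 24 h, and to Myef2 and Agrn, among those with the largest lower level. All are from GRCm38, 5′ to 3′, with each CG in capitals. Bases in an annotated UTR were left out, and Agrn was limited to its central 300 bases.
Hs3st1, chr5:39644635-39644864, forward strand: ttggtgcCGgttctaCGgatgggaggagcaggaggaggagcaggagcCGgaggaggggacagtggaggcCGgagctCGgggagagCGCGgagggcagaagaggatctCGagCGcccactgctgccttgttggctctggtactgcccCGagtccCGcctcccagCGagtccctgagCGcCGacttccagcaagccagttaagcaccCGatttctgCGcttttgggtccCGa
Tbx20, chr9:24770158-24770270, forward strand: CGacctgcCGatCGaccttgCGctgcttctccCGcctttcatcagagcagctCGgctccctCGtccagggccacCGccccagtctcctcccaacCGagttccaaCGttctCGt
Prmt2, chr10:76238019-76238195, forward strand: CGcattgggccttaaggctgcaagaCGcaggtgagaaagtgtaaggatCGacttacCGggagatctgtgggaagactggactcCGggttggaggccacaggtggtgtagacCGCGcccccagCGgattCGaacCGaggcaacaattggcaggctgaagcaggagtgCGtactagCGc
Myef2, chr2:125123662-125123825, forward strand: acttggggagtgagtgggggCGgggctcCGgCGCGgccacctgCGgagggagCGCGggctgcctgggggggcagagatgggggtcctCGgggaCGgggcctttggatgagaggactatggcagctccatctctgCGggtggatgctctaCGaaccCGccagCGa
Agrn, chr4:156197873-156198172, forward strand: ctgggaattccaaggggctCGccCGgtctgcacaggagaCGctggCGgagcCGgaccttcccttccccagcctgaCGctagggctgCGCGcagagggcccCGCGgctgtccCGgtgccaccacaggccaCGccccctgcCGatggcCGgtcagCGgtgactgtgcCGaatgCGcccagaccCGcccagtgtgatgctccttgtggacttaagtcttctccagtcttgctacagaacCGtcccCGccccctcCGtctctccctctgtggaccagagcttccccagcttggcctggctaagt
The stretch at Hs3st1 held 17 CG, that at Tbx20 11, Prmt2 12, Myef2 13 and Agrn 21. The complete cluster at Hs3st1 spanned chr5:39644487-39644863, over the transcription start, and 14 of its positions had a value in all 6 samples, 7 of them in the stretch shown. At Myef2 the stretch held 14 of the 36 positions behind the values, and at Agrn 19 of 21. The cluster at Prmt2 lay 154 bp from a transcription start, that at Agrn 371 bp and that at Tbx20 408 bp, none of them over an exon, while the cluster at Myef2, chr2:125123586-125123824, included the start.

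The labelled cell type was read from promoter clusters, since RRBS gives no expression. Pax5 and Ebf1, transcription factors that define the B lineage, and Vpreb1, part of the pre-B receptor, were nearly free of methylation, with levels between 0 and 1.49% in the 6 samples. No cluster lay at Cd79a, Cd79b, Blnk or Igll1. Of genes of other lineages, Bcl11b was between 97.2% and 98.9%, the 3 clusters at Cebpa between 93.3% and 99.3%, Cebpe between 80.2% and 89.3% and Twist1 between 96.05% and 100%. Tcf7 was intermediate, between 41.5% and 44.0%, and Klf1, a gene of red cells, was low, between 0.383% and 6.79%.

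Before the comparison, 2 of the 6 libraries stood apart. In Control 0 h replicate 1, 11.6% of the positions had no value, against 0.362% and 5.41% in the other 0 h samples and 0.110% to 0.298% in the 24 h samples. The share without a value was thus higher in every 0 h sample than in every 24 h sample, and its part in the results below was not tested. The library labelled Control 24 h replicate 2 went against its label. On a line drawn from the mean of the Control samples (0%) to the mean of the Ikaros samples (100%) of 2 to 18 h, over 698 clusters that differed between the series at those time points, it stood at 73.0%. The other 24 h samples stood at 6.66% and 3.07%, and the 0 h samples at 22.4%, 6.56% and 8.81%, the highest again replicate 1. The Ikaros samples of 0 h and 24 h, which did not set the line, stood between 86.8% and 109.5%. The limma comparison of clusters, the mean levels by class and by context and the named clusters were therefore repeated without the library labelled Control 24 h replicate 2, without Control 0 h replicate 1, and without both. The comparison of mean levels with the Ikaros series and the repeat, CG density and chromosome classes were repeated without both only, and the single positions and the totals of the gene lists were not repeated.

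**Figure D1:**
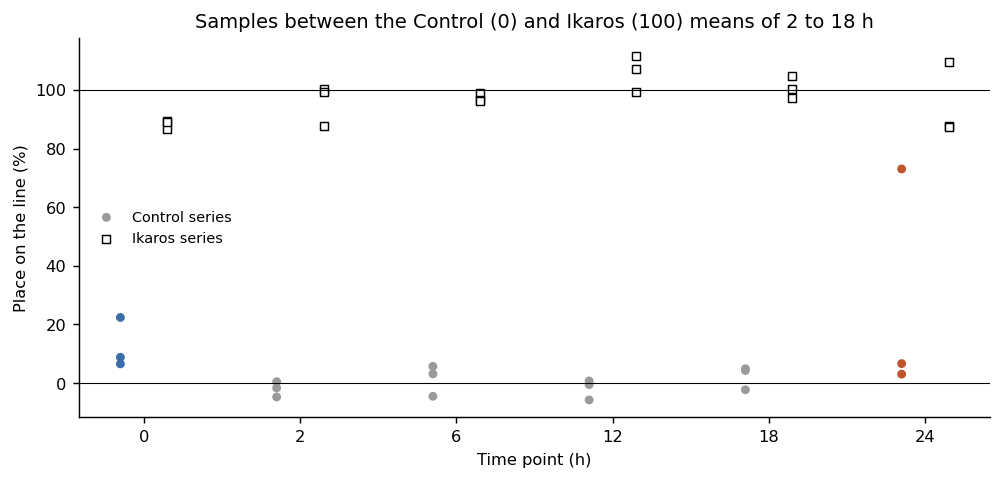
Place of each of the 36 samples (y axis, %) between the mean of the Control samples (0) and of the Ikaros samples (100) of 2 to 18 h over 698 clusters, by time point (x axis, h, evenly spaced); circles are Control and squares Ikaros samples. One Control 24 h sample stands at 73.0%, while its 5 counterparts of 0 h and 24 h stand between 3.07% and 22.4%.

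No cluster passed the threshold between 24 h and 0 h. Of 17053 clusters tested with limma on M-values, 0 (0%) had an adjusted p under 0.05, and the smallest adjusted p was 0.308. At an unadjusted p under 0.05, 185 clusters (1.08%) were higher and 807 (4.73%) lower at 24 h. When levels were fitted instead of M-values, 0 clusters passed, with 179 higher and 664 lower at an unadjusted p under 0.05. Without the library labelled Control 24 h replicate 2 the count that passed was 1, without Control 0 h replicate 1 it was 0, and without both it was 0. As the 0 h samples are shared, the contrasts of the other time points with 0 h are given only for their counts, over 16734 clusters. At an unadjusted p under 0.05, 204 clusters were higher and 493 lower at 2 h, 231 and 581 at 6 h, 251 and 481 at 12 h, 286 and 567 at 18 h, and 184 and 774 at 24 h. At an adjusted p under 0.05 (limma) 4 clusters passed at 6 h, 1 higher and 3 lower, 2 passed at 12 h, 1 higher and 1 lower, and 0 at 2 h, 18 h and 24 h.

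The clusters nearest to the threshold were in promoters, and their samples were ordered without overlap. They were chosen after their values were seen. Hs3st1, which encodes a sulfotransferase of heparan sulfate, had levels of 95.7%, 94.0% and 95.3% at 0 h and of 82.5%, 84.3% and 86.4% at 24 h. The difference of -10.6 percentage points was far larger than the SD of 0.883 at 0 h and 1.97 at 24 h (n = 3 each), but its adjusted p from limma was 0.308. The 12 Control samples of 2 to 18 h lay between 77.11% and 94.97% with a median of 88.4%, and reached into both groups. In the Ikaros series the mean was 89.8% at 0 h and 85.7% at 24 h.

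Mboat1, an acyltransferase of phospholipids, was at 97.9%, 97.4% and 97.7% at 0 h and at 96%, 95.4% and 96.2% at 24 h. Scn3b, a subunit of sodium channels, was at 100% in all 3 samples of 0 h and at 96.3%, 94.5% and 96.2% at 24 h. Dpy19l3, a mannosyltransferase, stood at the other end of the scale, with 2.27%, 1.53% and 1.94% at 0 h and 0.157%, 0.449% and 0.132% at 24 h. Each of these 4 clusters was lower at 24 h, and at each of them the range of the 2 to 18 h samples reached into both groups.

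A few clusters passed only in other fits. With all 18 Control samples in the fit, 2 clusters were lower at 24 h, both from high levels. They were the promoter of Gm13241, from 98.99% ± 0.2503 to 97.4% ± 0.269 (SD, n = 3; adjusted p = 0.00105, limma), and a region over Irx2, a homeobox gene, from 97.7% ± 0.281 to 95.5% ± 0.921 (SD, n = 3; adjusted p = 0.0129, limma). Without Control 0 h replicate 3, the promoter of Crlf2, a chain of the receptor for TSLP, passed with 3.25% and 3.42% at 0 h and 0% in each 24 h sample. Without the library labelled Control 24 h replicate 2, Scn3b passed. These names were chosen after the values were seen, and none of the 4 passed in the fit of all 6 samples, where their adjusted p was 0.384. Crlf2 and Scn3b had 1 group with no spread at all, at 0% and at 100%.

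Single positions gave more calls than clusters. Of 950647 positions, 19 were higher and 76 lower at an adjusted p under 0.05 (limma), by a median of 2.56 points. They lay in 40 clusters, 15 of which held 1 called position, and in 12 of the 40 the cluster means did not overlap. The largest number, 10, lay in a cluster in a coding exon, chr6:29170111-29171046. The nearest transcription start, 5105 bp away, was that of Rbm28, a nucleolar RNA-binding protein. That cluster was at 98.3%, 80.8% and 79.9% at 0 h and at 75.5%, 78.2% and 70.9% at 24 h, with Control 0 h replicate 1 far above the other samples. At Htr6, a serotonin receptor, 6 positions were called higher, and the cluster was at 94.7%, 96.7% and 97.1% at 0 h and at 98.1%, 99.4% and 98.3% at 24 h. Since the levels were smoothed over neighbouring positions by the authors, positions of a cluster are not independent.

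Over all clusters the mean level was slightly lower at 24 h. It was 45.71%, 45.99% and 45.81% at 0 h and 45.70%, 45.58% and 45.55% at 24 h. All 24 h samples were below all 0 h samples, but the lowest 0 h and the highest 24 h sample, both of batch 1, were nearly equal (-0.00499 points within that batch). The difference was -0.227 points, with an SD of 0.145 at 0 h and 0.0816 at 24 h (n = 3; exact permutation test, two-sided, p = 0.1, the smallest that 3 against 3 samples allow, so that p under 0.05 could not be reached). Within batch 4 it was -0.262 points. Without the library labelled Control 24 h replicate 2 it was -0.212, without Control 0 h replicate 1 it was -0.291, and without both it was -0.277. Without Control 0 h replicate 2, the highest sample, it was -0.148 (exact permutation p = 0.2). As a mean over positions in place of clusters it was -0.221 (exact permutation p = 0.2), and the groups were then no longer apart.

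The clusters were then grouped by their level, with the mean of the 12 Control samples of 2 to 18 h as the measure, so that neither compared group set its own class. Among the 8066 clusters under 5%, all 24 h samples were below all 0 h samples. Their mean was 0.703%, 0.747% and 0.828% at 0 h and 0.614%, 0.611% and 0.584% at 24 h, a difference of -0.156 points (exact permutation p = 0.1). The difference within batch 1 was -0.0893 and within batch 4 -0.244 points, and without both libraries named above it was -0.188. Of these clusters, 65.0% were lower and 33.7% higher at 24 h.

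At the other end, the 5223 clusters at 95% or more were also lower at 24 h in every sample. Their mean was 96.99%, 97.20% and 97.11% at 0 h and 96.84%, 96.87% and 96.68% at 24 h, a difference of -0.306 points (exact permutation p = 0.1). Within batch 1 it was -0.152, within batch 4 -0.436, and without both libraries -0.400. Of these clusters, 65.5% were lower at 24 h. The level was thus lower at both ends of the scale, by under 0.5 points, and the highest and the lowest class each differed by more than the SD within a time point, which was between 0.0168 and 0.106 points.

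Between the ends, only the clusters of 5 to 20% had groups without overlap. Their means were 11.24%, 10.58% and 10.75% at 0 h and 10.24%, 10.48% and 10.34% at 24 h, a difference of -0.508 points (411 clusters, exact permutation p = 0.1), which was -0.315 without Control 0 h replicate 1 (exact permutation p = 0.2). In the 544 clusters of 20 to 50% the means were 38.3%, 40.5% and 38.7% at 0 h and 39.8%, 35.4% and 38.3% at 24 h, with the library labelled Control 24 h replicate 2 lowest. The difference there was -1.33 points (exact permutation p = 0.4) and without that library -0.119, or -0.541 without both. In the 510 clusters of 50 to 80% the difference was -0.0906 points (exact permutation p = 0.8), with a sign that turned without that library (0.283). Within batch 1 it was 1.46 and within batch 4 0.623 points. In the 2299 clusters of 80 to 95% the difference was -0.0124 points (exact permutation p = 0.9), and -0.263 without both. With 1 sample left out it ranged from -0.160 to 0.178. Over the 6 classes the Benjamini-Hochberg adjusted p was 0.2 or more.

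**Figure D2:**
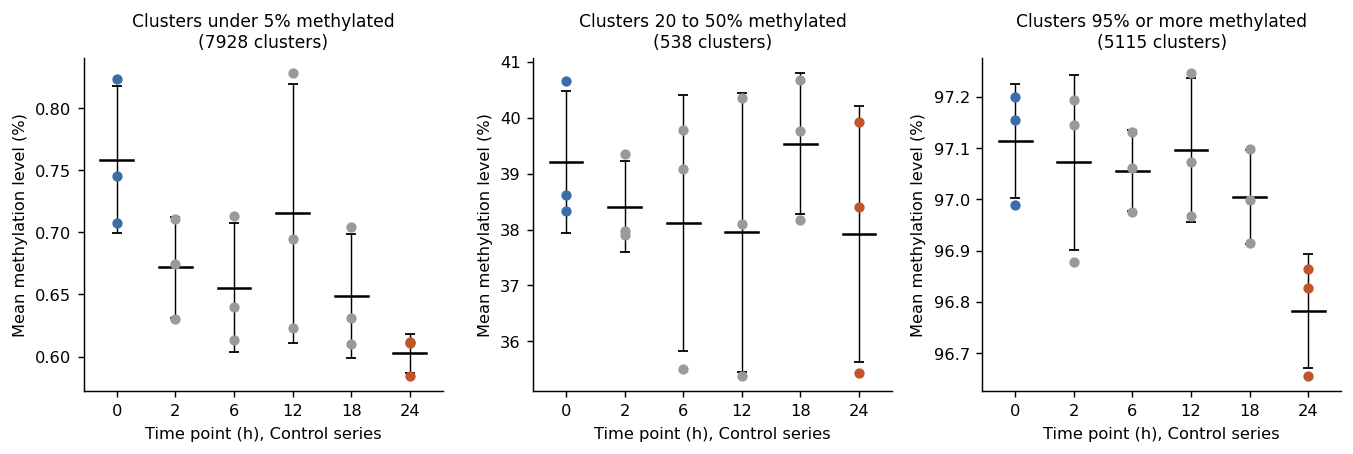
Mean methylation level (y axis, %, each panel with its own scale that does not start at 0) of clusters under 5%, of 20 to 50% and of 95% or more, over positions with a value in all 36 samples, at the 6 time points of the Control series (x axis, h, evenly spaced). Points are samples (n = 3), bars the mean and whiskers the SD; at 95% or more the 24 h samples lie between 96.66% and 96.86%, below the other Control samples, whereas at under 5% a sample of 18 h lies among the 24 h samples.

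The course between the end points did not run steadily one way. Over the positions with a value in all 36 samples, clusters under 5% had a mean of 0.759% at 0 h, 0.672% at 2 h, 0.655% at 6 h, 0.715% at 12 h, 0.649% at 18 h and 0.603% at 24 h, with an SD between 0.0158 and 0.104. Clusters at 95% or more had a mean of 97.11% at 0 h, 97.07% at 2 h, 97.06% at 6 h, 97.10% at 12 h, 97.00% at 18 h and 96.78% at 24 h, with an SD between 0.0787 and 0.171. The samples of 2 to 18 h set the classes, whereas those of 0 h and 24 h did not, and the part of this in the course was not tested.

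Single clusters showed the same lean to lower levels. In 1483 clusters (8.7%) all 24 h samples were below all 0 h samples, and in 409 (2.4%) they were above. Asking for a difference of more than 2 points left 468 (2.74%) lower and 184 (1.08%) higher. By contrast, 419 clusters were higher and 419 lower by over 5 points when overlap was allowed. By class the counts were unequal. They were 1 higher and 19 lower under 5%, 15 and 30 at 5 to 20%, and 73 and 145 at 20 to 50%. Above that they were 101 and 105 at 50 to 80%, 154 and 88 at 80 to 95%, and 75 and 32 at 95% or more. The large differences thus leaned to lower levels under 50% and to higher levels at 80% or more. The median difference over all clusters was -0.152 points, with a middle range from -0.751 to 0.206 points, while the median SD within a time point was 0.823 points.

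**Figure D3:**
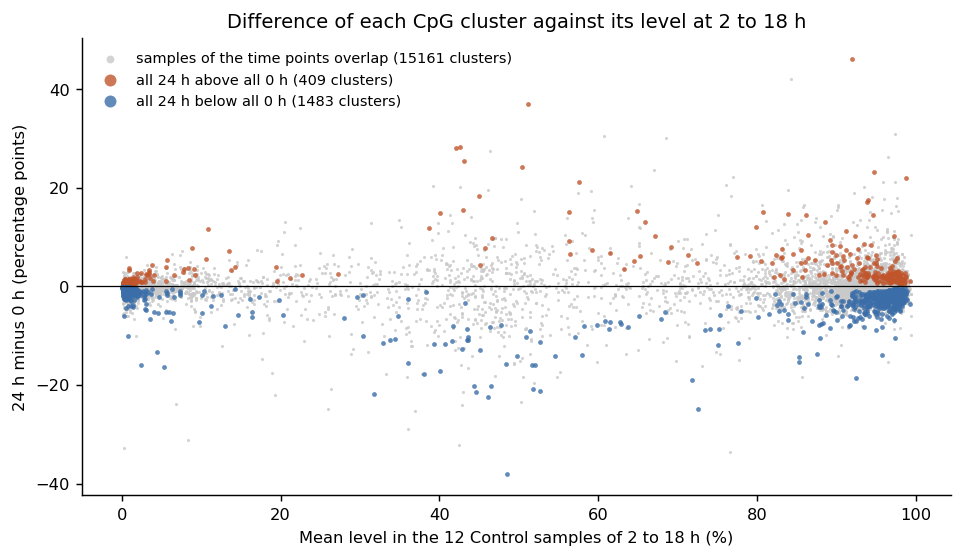
Difference of each of 17053 clusters (y axis, 24 h minus 0 h, percentage points) against its mean level in the 12 Control samples of 2 to 18 h (x axis, %). Grey points are clusters whose 24 h and 0 h samples overlap, orange the 409 with all 24 h above all 0 h samples and blue the 1483 with all below; blue points crowd just under the zero line at both ends of the x axis.

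The lower clusters without overlap were most frequent among the most methylated. Of the clusters at 95% or more, 10.6% (553) were lower and 1.90% (99) higher without overlap, against 8.7% and 2.4% over all clusters. Of those under 5%, 8.42% (679) were lower and 2.00% (161) higher. In the classes between, 6.27% to 6.81% were lower and 2.39% to 4.38% higher. With a difference of more than 2 points, 227 of the 468 lower clusters (48.5%) were at 95% or more, a class of 30.6% of all clusters, whereas 81 of the 184 higher clusters (44.0%) were at 80 to 95%, a class of 13.5%. Clusters under 5% can hardly move by 2 points, and gave 37 of the lower and 11 of the higher.

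**Figure D4:**
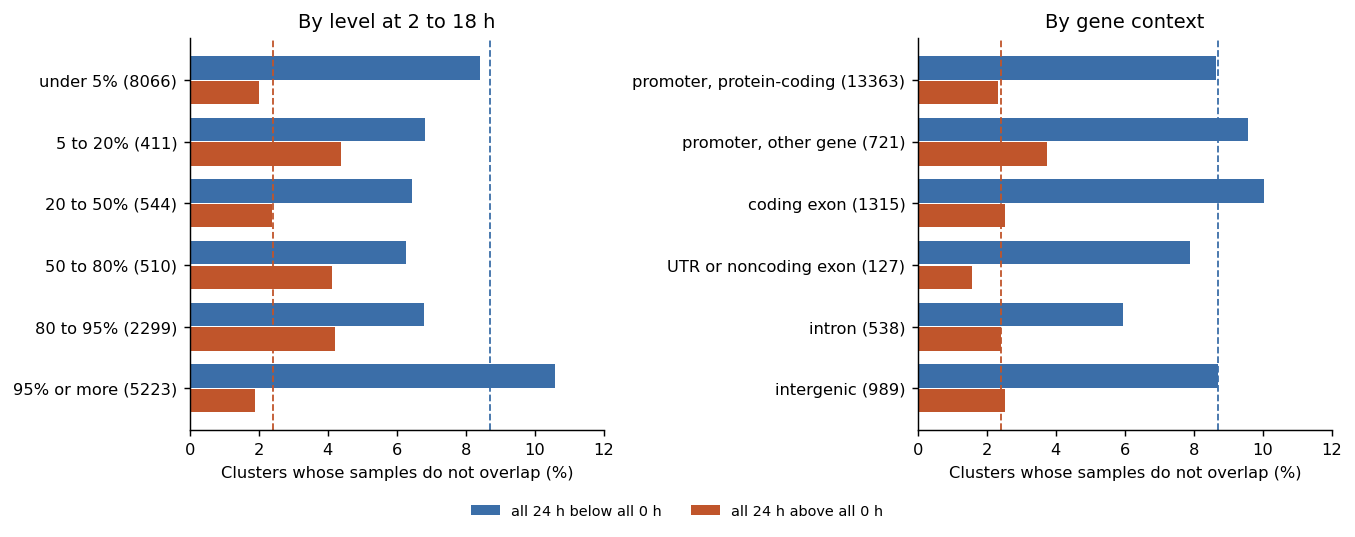
Share of clusters (x axis, %) whose 24 h samples all lie below (blue) or above (orange) all 0 h samples, by level at 2 to 18 h and by gene context (y axis, number of clusters in brackets); dashed lines give the shares over all clusters, 8.7% and 2.4%. Bars for lower levels exceed those for higher levels in every class and context, and the longest is at 95% or more.

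By gene context, the difference was within the same narrow range. In the 13363 clusters within 1000 bp of a transcription start of a protein-coding gene the mean was 36.64%, 36.86% and 36.66% at 0 h and 36.61%, 36.47% and 36.46% at 24 h, a difference of -0.208 points (exact permutation p = 0.1). Without Control 0 h replicate 2, the highest of the 0 h samples, it was -0.137 (exact permutation p = 0.2). In the 989 intergenic clusters it was 72.47%, 72.91% and 72.91% at 0 h and 72.44%, 72.33% and 72.37% at 24 h, a difference of -0.381 points (exact permutation p = 0.1). In both contexts the groups were apart, with batch 1 giving the closest pair, -0.0307 points in promoters and -0.0269 points between genes. Promoters of other genes differed by -0.343 points (721 clusters, exact permutation p = 0.2) and coding exons by -0.302 points (1315 clusters, exact permutation p = 0.2). UTR or noncoding exons differed by -0.252 points (127 clusters, exact permutation p = 0.7) and introns by -0.0459 points (538 clusters, exact permutation p = 0.9), and in these the time points overlapped. Without both libraries named above, the 6 contexts ranged from -0.744 in UTR or noncoding exons to -0.220 in introns, with -0.464 in coding exons. With 1 sample left out, UTR or noncoding exons ranged from -0.721 to 0.0405 and introns from -0.261 to 0.118.

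Contexts were then split by level. Within clusters at 95% or more, the difference was -0.282 points at promoters of protein-coding genes (3439 clusters), -0.301 at promoters of other genes (343), -0.376 in coding exons (859), -0.451 in introns (194) and -0.358 between genes (336). In each of these 5 contexts all 24 h samples were below all 0 h samples (exact permutation p = 0.1). The 52 such clusters in UTR or noncoding exons differed by 0.0543 points and overlapped, and without both libraries they differed by -0.877. Within clusters under 5%, promoters of protein-coding genes differed by -0.156 points (7630) and promoters of other genes by -0.132 (159), again without overlap. Coding exons (-0.366, 35 clusters), introns (-0.291, 76) and intergenic clusters (-0.0827, 148) overlapped, the last with -0.210 without both libraries and 0.124 within batch 1.

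Clusters were also compared by repeat content and CG density. Clusters with no repeat-masked base differed by -0.241 points, those with under 50% by -0.212 and the 366 with 50% or more by -0.241. Without both libraries these were -0.287, -0.250 and -0.661 points, and in the last class the difference within batch 1 was 0.349. Among clusters at 95% or more, those with 50% or more of repeat-masked bases differed by -0.647 points (127 clusters) and those without by -0.283 (2739), each without overlap between the time points. In 4 equal bins of CG density the difference lay between -0.241 and -0.212 points. Without both libraries it was -0.371, -0.250, -0.266 and -0.219 from the lowest to the highest density. The clusters without overlap had a median of 9.84 CG per 100 bp when lower and 9.01 when higher, against 9.52 over all. The mean was lower at 24 h on all 19 autosomes, from -0.309 points on chromosome 7 to -0.0895 on chromosome 18, and the difference on chromosome X was -0.0787 points. Without both libraries it ranged from -0.465 on chromosome 19 to -0.151 on chromosome 16 and was -0.310 on chromosome X.

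The clusters with the largest higher level at 24 h are given as a description, since they were picked by that difference. They are the 10 with at least 10 complete positions and no overlap between the time points. None passed the adjusted threshold, and the smallest adjusted p was 0.497 (Prmt2, limma).

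Efcab9 encodes a protein of the sperm calcium channel, and its cluster, chr11:32531832-32532397, also lay near the start of Stk10. Its level was 32.2%, 25.4% and 12.9% at 0 h and 50.9%, 67.3% and 37.3% at 24 h, a difference of 28.3 points. The 2 to 18 h samples ranged from 0 to 78.7%, wider than both groups together. Of the 12 complete positions of this cluster, however, only 2 had a value in all 36 samples. At Spata13, which encodes an exchange factor of small GTPases, the level was 0%, 18.5% and 3.03% at 0 h and 36.9%, 49.3% and 19.9% at 24 h. Here the lowest 24 h and the highest 0 h sample were close together, and the 2 to 18 h samples, from 25.5% to 53.2%, lay with 24 h.

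Esrrg encodes an orphan receptor related to the estrogen receptor that is known to bind 4-OHT. Its cluster, chr1:187608491-187608811, was at 28.6%, 29.4% and 42.4% at 0 h and at 64.8%, 62.2% and 49.9% at 24 h. The 2 to 18 h samples, from 27.95% to 49.63% with a median of 43.7%, ran from the 0 h values up to just below the lowest 24 h sample. The cluster was also one of the 698 that differed between the series, with an Ikaros mean of 52.1% ± 7.69 at 0 h and 60.4% ± 15.1 at 24 h (SD, n = 3). Map1a, a protein of microtubules, was at 45.2%, 56.5% and 47.9% at 0 h and at 81.2%, 68.7% and 63.3% at 24 h. It too was among the 698, with an Ikaros mean of 64.9% at 0 h and 65.7% at 24 h.

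Tbx20, a T-box factor of heart development, was at 62.5%, 84.2% and 86.3% at 0 h and at 94%, 96.6% and 94.6% at 24 h, on the sequence shown above. Control 0 h replicate 1 was the lowest, and without it the difference of 17.4 points was 9.84. Prmt2, an arginine methyltransferase, had little spread within a time point, with 34.8%, 33.6% and 30.8% at 0 h and 50.8%, 49.7% and 45.1% at 24 h. Its difference was 15.4 points with an SD of 2.03 at 0 h and 2.99 at 24 h (n = 3), and 15.7 without both libraries. The 2 to 18 h samples lay between 36.7% and 48.1%, in the gap and up to the 24 h values.

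Others were Pth1r, a hormone receptor (24.3 points), Dok6, an adaptor protein (21.96), and a cluster at Gm27239 and Sall3, a zinc finger factor (15.1). At Gm27239 the 0 h levels were 87.1%, 80.2% and 66.3%, and without Control 0 h replicate 3 the difference was 9.31 points. At Dok6, the same sample made the difference: the 0 h levels were 98.2%, 93.7% and 41.0%, and the 24 h levels 100%, 100% and 98.8%, 3.65 points apart without it.

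**Figure D5:**
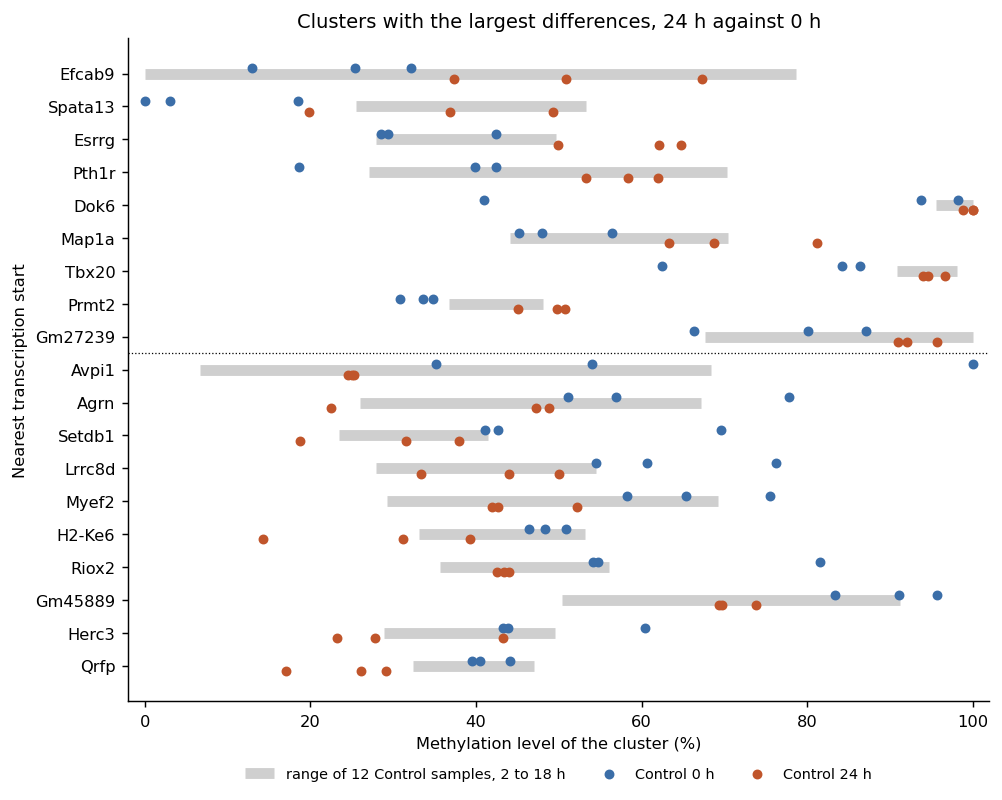
Methylation level (x axis, %) of 9 of the 10 clusters with the largest higher level (above the dotted line) and the 10 with the largest lower level at 24 h, named by the nearest transcription start (y axis). Blue points are the 3 samples of 0 h, orange those of 24 h, and grey bars the range of the 12 Control samples of 2 to 18 h, which overlaps at least 1 of the 2 groups at each cluster. The samples behind the grey bars can lack a value at some of the positions.

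The clusters with the largest lower level at 24 h were picked in the same way. Avpi1, a gene induced by vasopressin, was at 54.1%, 35.2% and 100% at 0 h and at 25.3%, 24.6% and 25% at 24 h (chr19:42128857-42129275). The 24 h samples were within 1 point of each other, whereas the difference of -38.1 points was -19.7 without Control 0 h replicate 3. The 0 h samples spread over most of the scale, and so did the 2 to 18 h samples, from 6.73% to 68.4%. None of the 10 complete positions at Avpi1 had a value in all 36 samples. Agrn, the organizer of synapses agrin, was at 77.7%, 57% and 51.2% at 0 h and at 47.2%, 22.5% and 48.9% at 24 h. Its extremes were the libraries that stood apart, Control 0 h replicate 1 and the library labelled Control 24 h replicate 2, and without both the difference of -22.4 points was -6.03.

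Setdb1, a histone H3K9 methyltransferase that works with KRAB zinc finger repressors, was at 69.6%, 42.7% and 41.1% at 0 h and at 37.9%, 18.7% and 31.5% at 24 h. The same libraries were at the ends, and without both the difference of -21.7 points was -7.18. Lrrc8d, a subunit of the volume-regulated anion channel, was at 76.3%, 60.7% and 54.5% at 0 h and at 50.1%, 44% and 33.3% at 24 h. Without both libraries its difference of -21.4 points was -15.9. Riox2, a ribosomal oxygenase, was at 81.5%, 54.7% and 54.1% at 0 h and at 43.4%, 42.5% and 44% at 24 h, and without Control 0 h replicate 1 the difference of -20.2 points was -11.1.

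Myef2, Gm45889, Qrfp and Herc3 differed by -19.4, -17.9, -14.6 and -16.6 points without both libraries that stood apart. Myef2, a repressor of myelin genes, was at 65.4%, 58.2% and 75.5% at 0 h and at 42.7%, 42% and 52.2% at 24 h, a difference of -20.7 points in all 6 samples. Gm45889 was at 91.1%, 83.3% and 95.6% at 0 h and at 73.9%, 69.7% and 69.3% at 24 h, a difference of -19.1 points. Both had 2 to 18 h samples in each group's range. Qrfp, a neuropeptide, was at 39.5%, 40.5% and 44.1% at 0 h and at 26.2%, 17.1% and 29.2% at 24 h, in a coding exon. All 12 samples of 2 to 18 h lay above its 24 h samples, between 32.4% and 47.0%. The cluster was among the 698 that differed between the series, with an Ikaros mean of 23.7% at 0 h and 30.5% at 24 h, and its lowest 24 h value was that of the library labelled Control 24 h replicate 2. Herc3, a ubiquitin ligase, was at 43.3%, 60.4% and 43.9% at 0 h and at 43.3%, 23.2% and 27.8% at 24 h, so that replicate 1 was almost equal at both times with a difference of -17.8 points. H2-Ke6, which encodes a dehydrogenase of steroids and fatty acids, was at 48.4%, 50.8% and 46.5% at 0 h and at 39.3%, 14.3% and 31.2% at 24 h, with the library labelled Control 24 h replicate 2 lowest and a difference of -20.3 points, -13.4 without both.

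The samples between the end points gave these clusters no common course. Of the 10 higher clusters, 5 had a mean at 12 and 18 h above that at 2 and 6 h, and of the 10 lower ones, 4 had it below. Over all 17053 clusters, 48.4% had the same sign in both differences, as did 45.7% of the 184 higher and 50.6% of the 468 lower clusters with more than 2 points. The shares were thus near those over all clusters.

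Of 202 genes in the lists, 137 had a cluster within 1000 bp of a transcription start, 215 clusters in all. Of these, 5 (2.33%) were higher and 17 (7.91%) lower without overlap, against 2.4% and 8.7% over all clusters, and none passed the adjusted threshold. The median difference was -0.130 points, beside -0.152 over all clusters.

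Among estrogen receptor genes and known estrogen or tamoxifen targets, 20 of 22 genes had 37 clusters, of which 0 were higher and 2 lower without overlap. Esr1, the receptor itself, was between 95.3% and 99.7% in the 6 samples. The median difference of the list was -0.148 points. For tamoxifen metabolism and xenobiotic response, 7 of 14 genes had 8 clusters, 1 of them lower without overlap, with differences from -3.25 to 2.01 points.

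Of genes that write, copy or remove methylation, 15 of 17 had 26 clusters, 2 higher and 2 lower without overlap. Tet1 was at 85.8%, 82.7% and 85.7% at 0 h and at 88.6%, 88.5% and 87.1% at 24 h, in 1 of its 2 clusters, 3.32 points higher. Tet3 was at 97.8%, 99.5% and 99.4% at 0 h and at 96.6%, 96.2% and 95.1% at 24 h, in 1 of its 2 clusters, a difference of -2.96 points. These clusters, 1 of 2 at each gene of the same enzyme family, differed in opposite directions, neither past the adjusted threshold (adjusted p = 0.888 and 0.750, limma). At Uhrf2, Control 0 h replicate 1 had 7.15% and the other 5 samples 0.773% to 1.16%.

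Among the imprinted genes, where one parental copy is normally methylated, 21 of 30 had 34 clusters, 0 higher and 5 (14.7%) lower without overlap, against 8.7% lower over all clusters. At an unadjusted p under 0.05, 5 (14.7%) were lower, against 4.73% over all. Impact was at 52.7%, 49.4% and 42.3% at 0 h and at 42.2%, 31.2% and 35.9% at 24 h, with the highest 24 h and the lowest 0 h sample nearly equal. Peg13 was at 72.1%, 57.4% and 59.4% at 0 h and at 55.7%, 56.5% and 53.5% at 24 h. Plagl1, in 1 of its 2 clusters, was at 97.9%, 97.6% and 99.9% at 0 h and at 96.6%, 88.4% and 95.9% at 24 h. Without both libraries the differences were -6.73, -3.80 and -2.52 points. The list held 12 clusters between 5% and 95% and 20 at 95% or more, and its median difference was -0.467 points. Of all 5223 clusters at 95% or more, 10.6% were lower without overlap, and 448 were lower at an unadjusted p under 0.05 (limma).

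In glycolysis and low-oxygen response, 17 of 18 genes had 22 clusters, 2 higher and 1 lower without overlap. Egln3, a hydroxylase that senses oxygen, was at 43.7%, 38% and 46.4% at 0 h and at 28.4%, 29.8% and 37.9% at 24 h, -10.7 points and -9.05 without both libraries. Pfkfb3, which makes an activator of glycolysis, was at 94.2%, 97.9% and 97.9% at 0 h and at 98.3%, 100% and 98.3% at 24 h, 2.20 points higher and 0.397 without both. Among cell cycle arrest and growth genes, 13 of 14 had 18 clusters, and 1 was lower without overlap. It was that of Cdkn1b, the inhibitor p27, with 29.6% in Control 0 h replicate 1 and 0.189% to 1.35% in the other 5 samples.

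The B-lineage transcription factors had 29 clusters at 16 of 20 genes, 23 of them under 5%, with 3 lower without overlap and differences from -0.781 to 2.72 points. The pre-B receptor and pre-B cell genes had 8 clusters at 5 of 18 genes, none without overlap. The germline genes silenced by methylation had 13 clusters at 10 of 21 genes, 10 of them at 95% or more. The 1 lower without overlap was at Tex101, with 96.9%, 92.8% and 100% at 0 h and 90.1%, 89.8% and 91.9% at 24 h. The genes of other blood lineages had 19 clusters at 10 of 22 genes, 1 higher without overlap. The retroviral and imprinting KRAB zinc finger repressors had 5 clusters at 5 of 8 genes, of which that of Setdb1 was lower, as given above.

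The Ikaros series, with the same 4-OHT and culture times, gave a reference for the Control difference. Its mean over all clusters was 45.92% ± 0.208 at 0 h and 46.09% ± 0.0445 at 24 h (SD, n = 3), that is 0.171 points higher, whereas the Control mean over the same 16734 clusters was 0.234 points lower (-0.234). The difference between the series was -0.405 points (exact permutation of the time labels within each series, p = 0.035, Benjamini-Hochberg adjusted p = 0.0817 over 7 comparisons). Under 5% it was -0.269 points (exact permutation p = 0.01, adjusted p = 0.07) and at 95% or more -0.494 points (exact permutation p = 0.03, adjusted p = 0.0817). In each of the 6 classes the Control value was the lower one, and none of the 7 passed the adjustment. Without both libraries the 7 values ranged from -0.972 to -0.300 points.

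For single clusters, the difference between the series was tested as an interaction in limma. Of 16734 clusters, 0 (0%) passed, with 155 higher and 970 lower in Control at an unadjusted p under 0.05. Leaving out Control 0 h replicate 1 gave 1 cluster, at Gkap1, and leaving out Control 24 h replicate 3 gave 1, at Ube2d2a, both named after their values were seen. At Gkap1 the Control levels were between 96.7% and 99.4% in all 6 samples.

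The 698 clusters that differed between the series at 2 to 18 h showed what the library labelled Control 24 h replicate 2 adds to the comparison. On average they were 1.08 points closer to the Ikaros side at 24 h than at 0 h, and 64.5% of them were on that side. Without this library the mean was -0.0404 points and the share 47.7%. They made up 16.8% of the 184 higher and 5.13% of the 468 lower clusters with more than 2 points and no overlap, against 4.09% of all clusters.

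The spread between samples set the scale for all of these values. Across clusters, the SD of the difference between samples of the same time point was between 2.93 and 6.32 points over 6 pairs, and between a 24 h and a 0 h sample between 3.07 and 6.09 over 9 pairs. The widest pair within a time point was of Control 0 h replicates 1 and 3, and the narrowest of Control 24 h replicates 1 and 3.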

How the data were processed

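Reads were aligned to mm10 with Bismark 0.10.1 by the authors, who then grouped frequently covered CpG positions and smoothed the methylation levels along them with BiSeq. The deposited level table gives a methylation fraction from 0 to 1 per position and sample. The deposited M-value table gives the log2 ratio of methylated to unmethylated, made by the authors from the same levels limited to 0.01 to 0.99. M-values recomputed from the levels differed from it by at most 7.28e-06. Since the tables hold no coverage, the depth behind each value is unknown and no counting interval is given.

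From these, 1116417 positions at most 100 bp apart were joined into clusters, and each cluster was averaged over those without a gap in the 6 samples (950647). Clusters were annotated with GENCODE genes on GRCm38, where 1116322 positions lay on a CG. A promoter was 1000 bp around a transcription start. Clusters were compared with limma 3.58.1 (R 4.3.3) on the mean M-value, with Benjamini-Hochberg adjustment and a threshold of 0.05. Mean levels were compared with two-sided exact permutation tests over samples. The tests were tested on simulated data. The clusters named were the 10 with the largest difference in each direction among those with at least 10 complete positions and no overlap between the time points, and, in the gene lists, those with no overlap and more than 2 points. The clusters, gene lists and tests were chosen with earlier results of these data known.

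Samples were grouped by their labels. Nothing in the labels says that replicates were separate cultures beyond their batch, so the p-values measure the spread between these samples. The values of some genes that these rules name are not reported here.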

Additional observations from a re-analysis of the deposited data

How the results depend on the processing

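The number of clusters past the adjusted threshold (limma) was 0 with levels in place of M-values, with another variance prior, with at least 10 complete positions and with a replicate block. It was 2 with all 18 Control samples in the fit and 95 with single positions as the unit. Leaving out 1 sample at a time gave 0 to 1, and 0 to 1 for the difference between the series. The count without overlap was 184 higher and 468 lower with a difference over 2 points. Without both Control 0 h replicate 1 and the library labelled Control 24 h replicate 2 it was 1490 higher and 4636 lower, and with 1 sample left out it was 821 to 1072 higher and 2285 to 3076 lower, where fewer samples must be apart.

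Replicate numbers did not pair the samples, since the correlations of same-numbered deviations were -0.0301, -0.0786 and 0.000665. With the replicate block, 217 clusters were higher and 824 lower at an unadjusted p under 0.05, and the mean difference of -0.227 points had an exact permutation p of 0.25, the smallest that 3 pairs allow. Within batches 1 and 4 the counts were 294 and 935.

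With 1 sample left out, the mean difference over all clusters ranged from -0.291 to -0.148 points, that under 5% from -0.184 to -0.122, that of 5 to 20% from -0.646 to -0.315, that of 20 to 50% from -2.31 to -0.119, that at 95% or more from -0.362 to -0.247 and that at protein-coding promoters from -0.255 to -0.137. The sign turned in some classes whose groups overlapped. With the classes set by the 0 h samples it was 0.286 for 20 to 50%, 0.0119 for 50 to 80% and 0.396 for 80 to 95%, and the cause was not tested. It was -0.116 under 5%, -0.454 for 5 to 20% and -0.730 at 95% or more. With 1 sample left out, 50 to 80% ranged from -0.485 to 0.668 (0.283 without the library labelled Control 24 h replicate 2) and 80 to 95% from -0.160 to 0.178 (0.0210 and 0.102 without Control 24 h replicates 1 and 3). UTR or noncoding exons ranged from -0.721 to 0.0405, and introns from -0.261 to 0.118 (0.00500 without Control 0 h replicate 3). Without both libraries that stood apart, the difference was -0.263 points for 80 to 95% and -0.744 for UTR or noncoding exons, against -0.0124 and -0.252, and the cause was not tested. The 20 named clusters kept their sign in each alternative, none past the adjusted threshold. This sign is no test, since they were chosen for having no overlap, so that leaving out a sample cannot turn it in levels. The unknown depth and the smoothing limit how far small differences can be read, and 3 samples a group cannot give an exact permutation p under 0.1.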
